A study of Solanum lycopersicum and Solanum pimpinellifolium with 9 samples.

Results

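Tomato fruit was compared between the mature green and the breaker stage, the step at which ripening becomes visible, across the 8098 genes that reached at least 25 RPKM in either library, of 34727 gene IDs in all. Transcripts were copied into cDNA, amplified by PCR and read by pyrosequencing. RPKM is a read number scaled to gene length and to library size. Both libraries came from Solanum lycopersicum cultivar MoneyMaker, the cultivated tomato. The mature green fruit was fully expanded and still green, and the breaker fruit was fully expanded and turning colour. Plants of both stages stood in soil in a greenhouse with 16 h of light and 8 h of dark and carried no stated treatment. Each stage is 1 library, and how many plants and fruits went into it is not stated in the sources used here, so no difference below has a replicate check and no test was run. The other 7 libraries of the series served for reference only. They were MoneyMaker root, stem, leaf, open flower and ripe fruit, and leaf and ripe fruit of accession LA0722 of the wild relative Solanum pimpinellifolium. The MoneyMaker ripe column was assigned by elimination.

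Tomato is a climacteric fruit. At the breaker stage ethylene production and respiration rise, chlorophyll is broken down and chloroplasts turn into chromoplasts that accumulate lycopene. Pectin and other wall polymers begin to be dismantled, starch gives way to sugars, and acids and aroma compounds change. A set of transcription factors acts upstream of these changes together with ethylene. The deposited table pairs its gene IDs with no names, and none of them was found in the reference table of 41476 genes used here. Genes are therefore described by group and, for the most extreme of each direction, by ID. Planned lists of ethylene, carotenoid, wall and photosynthesis genes were not run, nor was the labelled tissue checked against markers.

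The mature green library held 346944 reads assigned to genes and the breaker library 214610, as implied by the steps between RPKM values. On a gene model of 1 kb a single read was worth 2.88 RPKM at mature green and 4.66 RPKM at breaker, so a gene of a given level was more often missed in breaker. The other libraries ranged from 211201 to 380306 reads. The difference given for a gene is log2(RPKM + 5) in breaker minus the same in mature green, which understates the fold of low genes. A gene is called higher or lower when that difference reached 2 log2 units, which is 4-fold. At the minimum level itself, the other library had to stand at 2.5 RPKM or less for a gene to pass. The highest level left outside the comparison was 24.99 RPKM. The 846 genes between 25 and 30 RPKM had a median difference of -0.43, and the 1046 genes between 20 and 25 RPKM, which were not compared, had -0.48.

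Fruit at the breaker stage differed from mature green fruit by 4-fold or more in 1623 genes, 20% of those compared. Of these, 689 genes (8.51% of those compared) were higher in breaker fruit and 934 (11.5%) were lower. The remaining 6475 genes stayed within the rule. The median difference over all genes compared was -0.26, and the middle 90% of genes lay between -3.03 and 2.88. Genes higher made up 42.5% of those past the rule with the deposited values and 52.5% with a median-ratio size factor, which raises breaker by 0.31 log2 units and turns the overall median to 0.10, so which direction holds the majority depends on the scaling. Upper-quartile scaling raised breaker by 0.17 and equal sums lowered it by 0.10. In bulk fruit tissue, fewer cells of a type and less RNA per cell cannot be told apart.

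**Figure D1:**
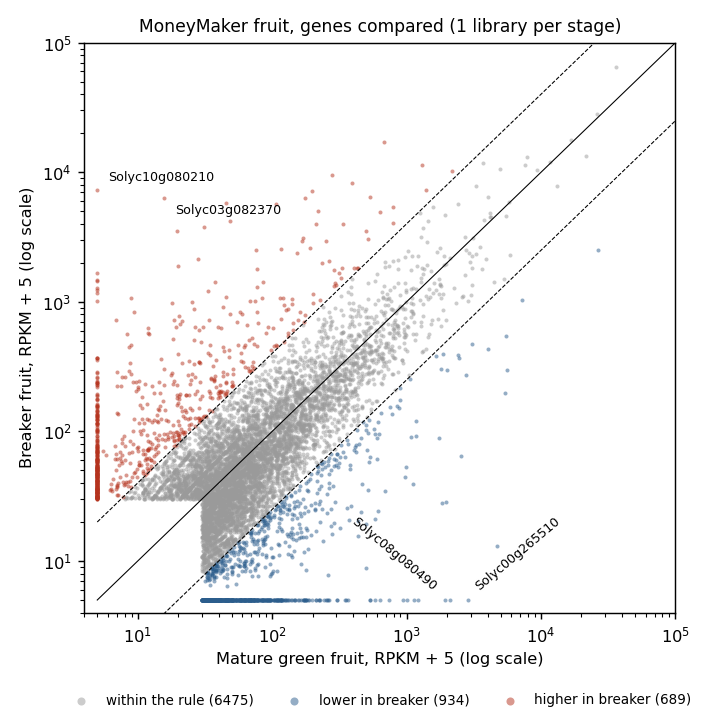
RPKM + 5 of the 8098 genes compared in mature green fruit (horizontal) and breaker fruit (vertical), both on log scales, 1 point per gene and 1 library per stage. The solid line marks equality and the dashed lines a 4-fold difference on this scale; the column of points at the left edge and the row at the bottom are the 273 and 517 genes listed at 0 in 1 of the libraries.

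The 2 genes with the largest differences upward had 0 and 1 read in mature green fruit and were among the 10 most abundant of the higher genes in breaker fruit. Solyc10g080210 stood at 0 in the mature green library and at 7237 RPKM, or 2134 reads, in the breaker library. Set against a floor of 3 reads in the mature green library, this was at least 1150-fold higher. The gene alone took 0.506% of summed RPKM in breaker fruit, and it stood at 12830 RPKM in ripe MoneyMaker fruit and 17185 RPKM in LA0722 ripe fruit. No read of it was listed in the 5 libraries of root, stem, both leaves and flower, so it was high in every fruit library except mature green. Solyc03g082370 had 1 read (10.7 RPKM) in mature green fruit and 369 reads (6368 RPKM) in breaker fruit. That ratio is 596-fold with a 95% exact interval of 106 to 23620, which covers counting error only. Unlike the first gene, Solyc03g082370 had reads in all 9 libraries. Outside fruit it ran from 34.7 RPKM in flower and 48.7 RPKM in MoneyMaker leaf to 1194 RPKM in root. In the ripe fruit libraries it stood at 5450 RPKM in MoneyMaker and 1473 RPKM in LA0722.

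The 2 genes with the largest differences downward were listed at 0 in breaker fruit. Solyc00g265510 stood at 2844 RPKM in mature green fruit, from 74 reads on an inferred gene model of only 75 nt, and was at least 15.3-fold lower in breaker fruit against the floor of 3 reads. It was listed at 0 in ripe MoneyMaker fruit and at 126 RPKM, which is 2 reads, in LA0722 ripe fruit. Solyc08g080490 stood at 2094 RPKM in mature green fruit, from 316 reads on 435 nt, and was at least 65.2-fold lower in breaker fruit. Beyond fruit it had 1 read, in stem. Its reads were thus nearly all in mature green fruit, with a further 6 reads (65.3 RPKM) in LA0722 ripe fruit.

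The 20 genes furthest upward had differences between 6.21 and 10.50, and 10 of them were listed at 0 in mature green fruit. Their breaker levels ran from 366 to 7237 RPKM on 17 to 2134 reads. In the libraries that took no part in choosing them, 19 of the 20 stood at 25 RPKM or more in ripe MoneyMaker fruit and 19 of the 20 in LA0722 ripe fruit, with median levels of 1030 and 755 RPKM. Over all genes compared, 63.6% and 56.1% did so. Their median in breaker fruit was only 44.6 RPKM, and no share was taken at a matched level. The 20 genes furthest downward had differences of 5.92 to 9.15 in size, and 17 of them were listed at 0 in breaker fruit. Of the 20, 12 were listed at 0 in ripe MoneyMaker fruit and 9 in LA0722 ripe fruit, while 3 and 7 stood at 25 RPKM or more there. In each direction, 8 of the 20 were below 25 RPKM in root, stem, leaf and flower alike, as were 1587 of the 8098 genes compared.

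Many genes past the rule moved between detected and not detected. Of the 8098 genes, 4708 reached 25 RPKM at both stages, 2095 at mature green only and 1295 at breaker only. Among the 689 higher genes, 273 were listed at 0 in mature green fruit and 156 had already reached 25 RPKM there. Among the 934 lower genes, 517 were listed at 0 in breaker fruit and 108 remained at 25 RPKM or more. Counting error is large for many of them. The library with the higher value held a median of 17 reads for the higher genes and 16 for the lower genes, and under 5 reads for 160 and 162 of them. Of the 273 higher genes at 0 in mature green fruit, 84 were at least 4-fold above the floor of 3 reads, and 90 of the 517 lower genes at 0 in breaker fruit were at least 4-fold below their mature green level on the same floor. Of the genes with reads at both stages, 185 of 416 higher and 79 of 417 lower genes had a 95% exact counting interval that lay wholly past 4-fold. These intervals compare the 2 libraries and not the stages.

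The 689 genes higher at breaker held a larger part of summed RPKM in breaker fruit than the 934 lower genes held in mature green fruit. Their share of summed RPKM was 1.98% in mature green and 22.9% in breaker fruit. By reads the shares were 2.06% and 24.9%. A few genes carried much of this. The 10 most abundant of them, each at 6368 RPKM or more in breaker fruit, held 6.35% of summed RPKM there against 0.522% in mature green fruit, and the top 100 held 17.5% against 1.5%. The 934 lower genes went from 14.9% to 1.19% of summed RPKM, with 5.06% in mature green fruit held by their 10 most abundant members. Of the 100 most abundant genes of breaker fruit, 40 were higher and 1 was lower than in mature green fruit. Of the 100 most abundant of mature green fruit, 22 were lower and 1 was higher at breaker. The lists had 45 genes in common. Over all genes compared, 8.51% were higher and 11.5% were lower. Each list was ranked by 1 of the 2 libraries compared, which by itself favours genes that are higher there. These shares and counts describe the libraries that chose the genes.

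The direction of the differences changed with the level of the gene in the higher of the 2 libraries. These are also the libraries that gave the calls. Among weakly expressed genes more were lower at breaker, and among the most abundant genes more were higher. Of the 3045 genes whose higher library stood between 25 and 50 RPKM, 188 (6.17%) were higher and 394 (12.9%) were lower. Between 100 and 200 RPKM the counts were 122 and 139 of 1351, and between 200 and 500 RPKM they were 111 and 91 of 922. At 1000 RPKM or more, 67 of 246 genes (27.2%) were higher and 30 (12.2%) were lower. The lower genes thus stayed between 9.23% and 12.9% in each class, whereas the share of higher genes was larger in each class than in the one below. A gene at 25 RPKM passed only with the other library at 2.5 RPKM or less, so a call was harder to reach for weak genes. The part of the rule itself in the rise with level was not tested. With equal sums, upper-quartile and median-ratio scaling the counts at 1000 RPKM or more were 56 and 31, 76 and 28, and 86 and 27 higher and lower genes. In the lowest class they were 175 and 400, 199 and 370, and 226 and 358, so neither end turned. The shallower breaker library, in which weak genes are missed more often, goes with the excess of lower genes in the lowest class, and its part in that result was not tested.

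**Figure D2:**
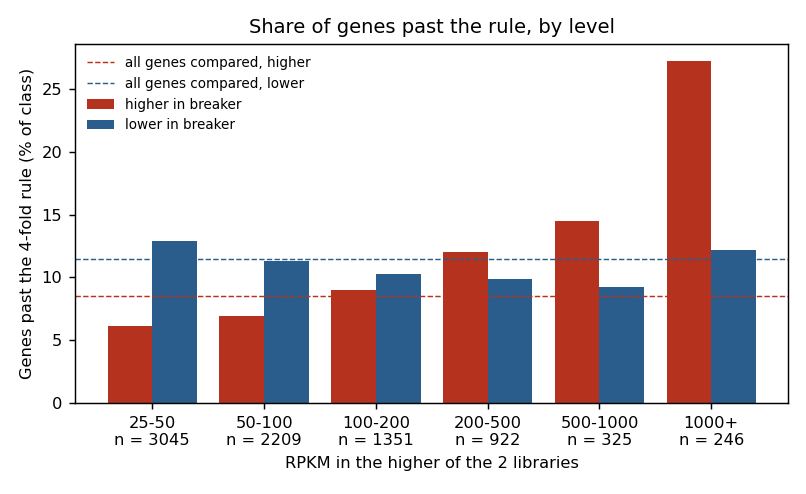
Share of genes at least 4-fold higher (red) or lower (blue) in breaker than in mature green fruit, in percent of each class, by the RPKM of the higher library. The dashed lines give the shares over all genes compared, 8.51% and 11.5%; higher genes climb from 6.17% in the lowest class to 27.2% at 1000 RPKM or more.

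Genes were next grouped by the MoneyMaker organ, among root, stem, leaf and flower, in which they were highest, a grouping that uses neither fruit library. Among genes highest in stem few were higher at breaker, while their share of lower genes was close to the 11.5% over all genes compared. Genes highest in flower had more higher than lower genes. Of the 2436 stem-highest genes, 95 (3.90%, against 8.51% over all genes compared) were higher and 284 (11.7%) were lower, with a median difference of -0.38 against -0.26 over all genes compared. Of the 581 flower-highest genes, 78 (13.4%) were higher and 53 (9.12%) were lower, with a median of 0.19. The 988 leaf-highest genes had 65 higher and 116 lower (6.58% and 11.7%), and the 2506 root-highest genes had 204 and 210 (8.14% and 8.38%). In the leaf group the lower genes went from a median of 66.2 RPKM in mature green fruit to 0 RPKM in breaker fruit, and their median was also 0 RPKM in both ripe libraries. The lower genes of the root group came from 71.2 RPKM, and 89 of the 210 (42.4%) stood at 25 RPKM or more in ripe MoneyMaker fruit, against 19 of 116 (16.4%) in the leaf group. The shares over all compared genes of these groups were 75.6% and 57.6%.

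The direction held under each scaling for stem, leaf and flower but not for root. Stem-highest genes had 90 higher and 296 lower with equal sums, 108 and 256 with upper-quartile scaling and 120 and 233 with a median-ratio size factor. Flower-highest genes had 69 and 55, 81 and 48, and 91 and 44 in the same order, and leaf-highest genes 56 and 120, 71 and 104, and 86 and 101. Root-highest genes turned from 191 and 225 with equal sums to 232 and 193 and to 261 and 185 with the other scalings. The medians moved more readily than these counts, since that of the leaf group was -0.16 with the deposited values and 0.17 with a median-ratio size factor.

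**Figure D3:**
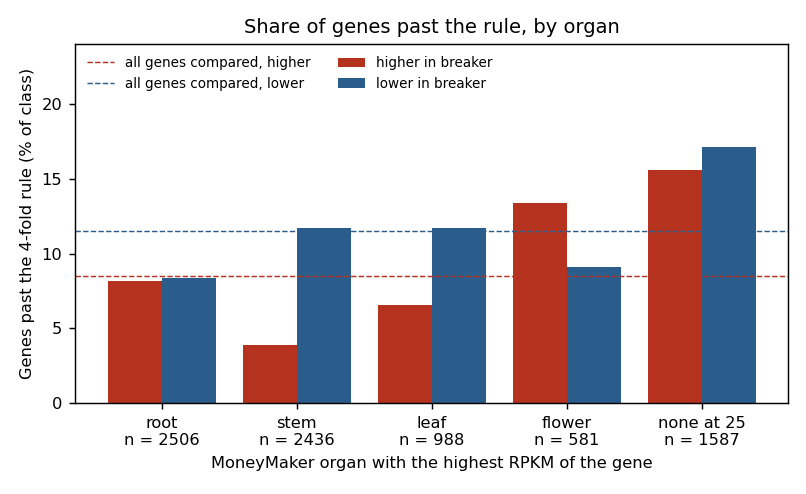
Share of genes at least 4-fold higher (red) or lower (blue) in breaker than in mature green fruit, in percent of each group, with genes grouped by the MoneyMaker organ of highest RPKM or by having less than 25 RPKM in all 4. Dashed lines give the shares over all genes compared; the stem group has the lowest share of higher genes, 3.90%, and the group with no organ at 25 RPKM the highest shares in both directions, 15.6% and 17.1%.

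The share of genes past the rule was larger the fewer other organs had the gene. Of the 1587 genes that stood below 25 RPKM in root, stem, leaf and flower, 247 were higher and 271 lower at breaker, together 32.6%. The share past the rule was 25.4% among genes at that level in 1 organ, 17.7% in 2, 15.8% in 3 and 9.60% among the 1521 genes at that level in all 4. Genes found in few organs also rest on fewer reads, with a median of 12 reads in the higher library for those in no organ and 40 for those in all 4. Read numbers were inferred as the smallest that fit, so they may be too low for genes seen in few libraries. A minimum number of reads shares this limit. Among genes with at least 20 reads the shares still ran from 36.2% (156 of 431) to 9.77% (112 of 1146). Of the 210 genes listed at 0 in all 4 organs, 85 (40.5%) were higher, 77 (36.7%) were lower and 48 stayed within the rule. Over all genes compared, 8.51% were higher and 11.5% were lower. The 210 genes had a median of only 4 reads in the higher library, and the part of counting error in their calls was not tested. With at least 20 reads, 23 of the 44 genes listed at 0 in all 4 organs were higher and 14 were lower. Among the 1587 genes the direction turned with the scaling, from 229 higher and 274 lower with equal sums to 300 and 258 with upper-quartile scaling and 336 and 246 with a median-ratio size factor.

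The ripe libraries took no part in choosing the genes. The 689 higher genes had a median of 4.82 RPKM at mature green and 106 RPKM at breaker, while in ripe fruit it was 57.7 RPKM for MoneyMaker and 27.4 RPKM for LA0722. At 25 RPKM or more stood 448 of them (65.0%) in ripe MoneyMaker fruit and 357 (51.8%) in LA0722 ripe fruit, against 63.6% and 56.1% of all genes compared. The shares were thus close to those of all genes compared, and larger among the genes furthest upward. Of the 69 genes with a difference of 5 or more, 59 (85.5%) stood at that level in ripe MoneyMaker fruit and 54 (78.3%) in LA0722 ripe fruit, with medians of 359 and 233 RPKM. Of the 215 genes with a difference of 3 to 4, 124 (57.7%) and 86 did so, from a breaker median of only 64.1 RPKM against 573 RPKM in the top class.

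The 934 lower genes were largely below the level in ripe fruit. They stood at 25 RPKM or more in 248 cases (26.6%) in ripe MoneyMaker fruit and in 224 cases in LA0722 ripe fruit, and were listed at 0 in 400 (42.8%) and 464 (49.7%). Over all genes compared, 10.3% and 16.2% were listed at 0. Of the 45 genes that were lower by more than 5 log2 units, with a median of 261 RPKM in mature green fruit, 30 were listed at 0 in ripe MoneyMaker fruit and 23 in LA0722 ripe fruit. In root, stem and both leaf libraries the median of the lower genes stood above that of the higher genes and below that of all genes compared. For the lower genes it was 24.5 RPKM in root, 27.9 in stem, 14.5 in MoneyMaker leaf and 9.7 in LA0722 leaf. The higher genes had 18.5, 14.3, 5.07 and 2.36 RPKM, and all genes compared 38.2, 39.4, 22.1 and 27.6 RPKM. In flower the lower genes had the lowest median, 0 RPKM against 0.86 RPKM for the higher genes and 9.64 RPKM over all genes compared.

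**Figure D4:**
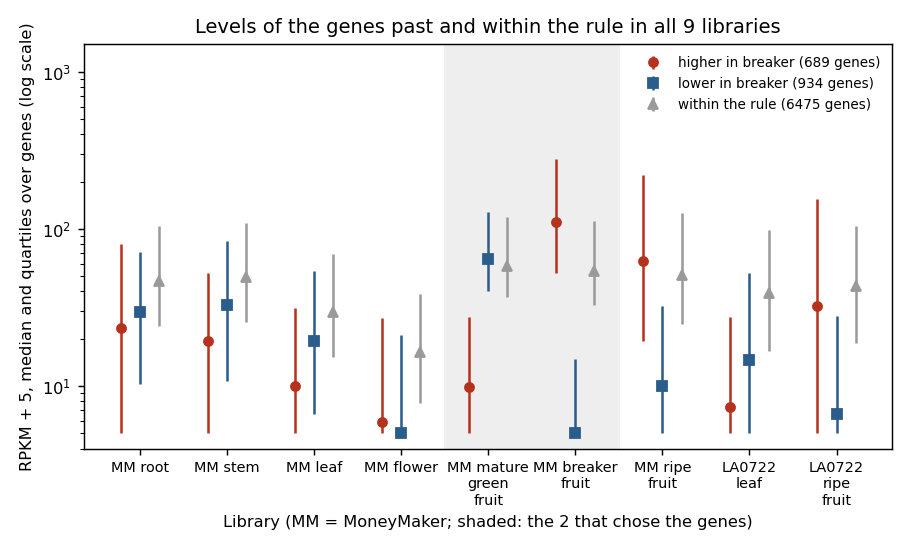
Median (symbol) and quartiles (bar) of RPKM + 5 on a log scale in each of the 9 libraries, over the 689 genes higher at breaker (red circles), the 934 lower (blue squares) and the 6475 within the rule (grey triangles); bars span genes, not replicates. In the shaded libraries, which chose the genes, the red and blue medians cross over, and in both ripe fruit libraries the red median stays above the blue.

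In LA0722, 258 of the 689 genes higher at breaker in MoneyMaker stood at least 4-fold higher in ripe fruit than in leaf. That is 61.4% of the 420 that reached 25 RPKM in either LA0722 library. The contrast shares no library with the stages compared. The LA0722 ripe fruit library differed from the LA0722 leaf library by the same 4-fold rule in 1458 genes upward (19.3%) and 1463 downward (19.4%) of 7551 compared. Of the 689 genes higher at breaker, 420 reached 25 RPKM in either LA0722 library, and 258 of these (61.4%) were higher in fruit and 55 (13.1%) lower. Over all genes of the MoneyMaker comparison the figures were 18.5% and 14.3% of 5701. Of the 934 genes lower at breaker, 424 reached the level, and 80 (18.9%) were higher in LA0722 fruit and 182 (42.9%) lower than in LA0722 leaf. Reaching the level is itself linked to the direction. The higher genes reached it in LA0722 ripe fruit in 357 cases and in LA0722 leaf in 160, the lower genes in 224 and 327. With every member counted and no minimum level, the median LA0722 difference was 1.11 for the higher genes and 0.0 for the lower genes and for all genes compared. The LA0722 difference lay above 0 in 59.5% of the higher genes, 25.1% of the lower genes and 47.9% of all genes compared. It lay below 0 in 21.5%, 49.0% and 44.3% in the same order. No difference was found in 131 of the higher genes, 242 of the lower genes and 639 of all genes compared, and such ties count to neither share. This contrast is one of fruit with leaf and not of ripening stages.

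Genes higher at breaker lay next to each other in the order of the gene IDs in a larger share than their overall share. In this naming scheme the digits after the prefix give the chromosome and the rest number the genes along it. Pairs were formed of neighbouring IDs of a chromosome, both among the 8098 genes compared, which gave 2592 pairs. In 61 pairs both genes were higher, in 54 both were lower, and in 33 they went opposite ways. A gene beside a higher gene was itself higher in 26.3% of cases, against 8.93% over all genes of such pairs, and was lower in 7.13%. A gene beside a lower gene was itself lower in 19.1% of cases, against 10.9%. At 2 places apart the share for higher genes was 19.1%, and at 5 places it was 8.24%, against 8.21% over all genes of those pairs. Among genes with at least 20 reads the share beside a higher neighbour was 36.2%, against 10.2%. With a rule of 1 log2 unit the excess was smaller, at 25.9% against 18.7% for higher genes and 31.7% against 26.1% for lower genes. Neighbouring genes can be copies of each other, and reads that fit both copies could be split between them. Whether any pair shares sequence was not tested, since no gene sequences were used here.

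**Figure D5:**
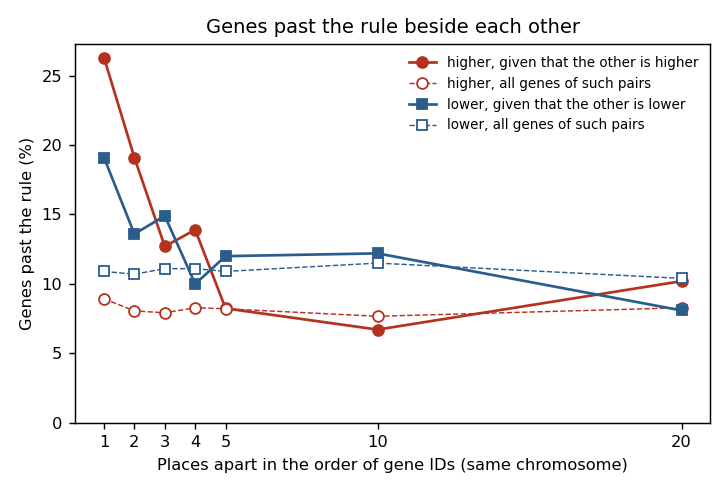
Percent of genes that were higher (red circles) or lower (blue squares) at breaker, given that the gene a set number of places away in ID order was so too (filled symbols), beside the percent over all genes of such pairs (open symbols). Adjacent genes stand at 26.3% and 19.1%, above 8.93% and 10.9%, and from 5 places on the filled and open symbols lie close together.

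Unbroken runs of neighbouring IDs held 111 of the higher genes (16.1%) in 50 runs and 101 of the lower genes (10.8%) in 47 runs. Of these, 41 in each direction were pairs. The longest run upward, on chromosome 4, had 5 genes with 0 to 14.5 RPKM at mature green and 34.4 to 175 RPKM at breaker. In ripe MoneyMaker fruit they stood at 23.6 to 250 RPKM, and in LA0722 ripe fruit none was above 40.1 RPKM. A run of 3 on chromosome 6 was the most abundant, with 43.7 to 676 RPKM at mature green and 794 to 17005 RPKM at breaker, the upper value being the highest of any higher gene. A further run of 3, on chromosome 1, stood at 135 to 792 RPKM and at 954 to 4067 RPKM, and its genes reached no more than 71.4 RPKM in root, stem, leaf and flower. A run of 3 on chromosome 5 went from 34.3 to 72.1 RPKM up to 410 to 828 RPKM and stayed at 286 to 668 RPKM in ripe MoneyMaker fruit, but at 34.0 RPKM or less in LA0722 ripe fruit. The longest run downward had 4 genes on chromosome 9, between 29.5 and 260 RPKM in mature green fruit and at most 42.0 RPKM in breaker fruit. A run of 3 on chromosome 7 stood at 69.6 to 973 RPKM and then at 39.8 RPKM or less, and was listed at 0 in ripe MoneyMaker fruit. These runs were picked after their values were seen.

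By chromosome the share of higher genes ran from 6.10% on chromosome 5 (32 of 525) to 11.6% on chromosome 3 (99 of 850). The share of lower genes varied less, from 10.2% on chromosome 3 to 13.1% on chromosome 4. With the deposited values, chromosome 3 was the only one of the 12 with more higher than lower genes, 99 against 87. The counts by chromosome were not repeated with other scalings, and the majority over all genes compared depends on the scaling. Of the 74 genes whose IDs carry the digits for no chromosome, 10 were higher and 15 lower.

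Genes past the rule had shorter inferred gene models than the rest, and this difference was smaller once weakly read genes were left out. The inferred length had a median of 633 nt for the higher genes, 680 nt for the lower genes and 885 nt for the genes within the rule. With at least 20 reads in the higher library, the medians were 960 nt, 1166 nt and 1086 nt, so only the higher genes remained shorter. A read on a short gene is worth more RPKM, and short genes therefore reach 25 RPKM on fewer reads. The lengths are also the smallest that fit the values, so they may be too low for genes seen in few libraries. Of the genes past the rule, 273 higher genes were listed at 0 in mature green fruit and 517 lower genes in breaker fruit. No gene within the rule was listed at 0 in either library. The part of this limit in the difference was not tested.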

How the data were processed

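RPKM values from pyrosequencing of cDNA were deposited by the authors for 9 libraries, 1 per group, with 2 decimals. The submitters' processing notes name HTSeq without a version. The aligner, build, annotation and filters were not given in the sources used here. Each column went to the sample its name matches, except that ripe MoneyMaker fruit was assigned by elimination. Whole reads and gene lengths were inferred from the steps between RPKM values, with lengths taken as multiples of 3 nt. The smallest read numbers that fit were taken, so reads and lengths of genes seen in few libraries may be too low. The recovered reads summed to 99.8% of the implied total in mature green and 99.9% in breaker fruit. The recovery was tested on simulated reads, only for genes seen in several libraries. The rule of size was tested on the same simulated reads, which carry counting error and no variation between fruits. The genes changed in that simulation did not include the most weakly read ones. The outcomes of these checks are not given here. Differences of log2(RPKM + 5), with a minimum of 25 RPKM and a rule of 2 log2 units, were computed with Python 3.11.15, numpy 2.4.6, pandas 2.3.3 and scipy 1.17.1. Ratios of reads carry exact Clopper-Pearson intervals at 95%, and folds of genes listed at 0 in a library use a floor of 3 reads there. Both cover counting error only. In the differences and calls a listed 0 was kept as 0, with 5 RPKM added as for every gene. By rule, only the 2 most extreme genes of each direction are named. The genes compared, the groups and the naming rule were chosen with earlier results of these data known. Alternatives were other pseudocounts, minimum levels, scalings, rules of size and a minimum of 20 reads.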

Additional observations from a re-analysis of the deposited data

How the results depend on the processing

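With the deposited values 689 genes were higher, 934 were lower and the median difference was -0.26. A pseudocount of 20 RPKM gave 343 higher, 328 lower and a median of -0.20, and a minimum of 100 RPKM gave 347, 290 and -0.12, so the majority turned in both. A rule of 1 log2 unit gave 1478 higher and 2152 lower genes, and at least 20 reads in the higher library gave 311, 398 and a median of -0.46. The median was -0.30 with a pseudocount of 1 RPKM, -0.37 with no minimum level, -0.37 with equal sums, -0.070 with upper-quartile scaling and 0.10 with a median-ratio size factor, where its sign turned. Group medians that changed sign were that of genes in no organ, at 1.92 with 100 RPKM, 0.18 with upper-quartile scaling and 0.41 with a median-ratio size factor, that of leaf-highest genes, at 0.026 and 0.17 with these scalings, and that of root-highest genes, at 0.045 with a median-ratio size factor. The cause was not tested. The 4 genes named kept their direction under each pseudocount and scaling tried. The planned lists by gene name were not run. No paired analysis was possible because each group holds 1 library, and for the same reason no replicate could be left out. Depth limits genes near 25 RPKM, where 1 read on 1 kb is worth 4.66 RPKM in breaker fruit.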
